A study of Mus musculus with 18 samples.

Results

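The genes followed here build and run the epithelium of the early mouse embryo. They are the keratins Krt8 and Krt18, the claudins Cldn4, Cldn6 and Cldn7, E-cadherin (Cdh1), the sodium pump subunit Atp1b1 and the tetraspanin Tspan8. These 8 genes were chosen by name, with earlier results of these data known, and matched by symbol and Ensembl identifier. The shares over all genes set beside their counts below are therefore a description and no test of the group. All 8 were measured in each of the 3 stage tables, which hold 7082 (E2.5), 6648 (E3.75) and 6545 genes (E4.5). The series compared CD1 mouse embryos, either wild type (Oct4 +/+) or null (Oct4 -/-) for Oct4, the pluripotency transcription factor encoded by Pou5f1, to find genes that depend on it. Embryos without further treatment were collected from the oviduct or uterus at 3 stages. E2.5 precedes the blastocyst, E3.75 embryos are blastocysts and E4.5 embryos are late blastocysts. Each genotype and stage has 3 libraries, 18 in all. How the null allele was made, and which part of the gene it lacks, is not given in the labels. Whole embryos were used, so in each value fewer cells of a type and less RNA per cell cannot be told apart.

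The outer cells of the cleaving embryo polarise and become the trophectoderm, an epithelium that encloses the blastocyst cavity. E-cadherin holds the blastomeres together at compaction, keratins 8 and 18 pair into the filaments of simple epithelia, and claudins form the strands of the tight junctions that seal the layer. The sodium pump moves sodium towards the cavity, and water follows through aquaporins. Tetraspanins are membrane proteins that gather partners into patches, and Tspan8 is one that many epithelia carry.

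Values are CPM, read counts per 1000000 reads of the genes in a table. Because RNA was primed with oligo(dT) and amplified next to the poly(A) tail, reads lie near the 3′ end of transcripts. Depth was 364936 to 1922432 reads per library, and at every stage the median was higher among null libraries, and the 8 genes drew between 19 (Cldn6) and 11764 (Krt18) reads in a library. In every group the third library lay near a weighted mix of the other two. Its spread around that mix, as a variance, was 1.09 to 1.29 times what sampling of reads gives, while the first and second libraries had 1.39 to 3.06 times. The labels speak of 3 embryos per genotype and stage and say no more on the source of the libraries. The p-values here thus cover only how these libraries vary, and the calls below were also made without the third libraries. If the third library is such a mix, a fit without the first or second library still holds part of it. Fits with 1 library left out are therefore no independent check of a call. Pou5f1 itself stood at 1809, 2093 and 1723 CPM in wild type and 931.1, 1011 and 963.1 CPM in null libraries at E2.5. It was lower in null libraries with no overlap at the other 2 stages too, with a log2 difference of -0.96 at E3.75 and -1.05 at E4.5. With reads from the 3′ end and the deleted part not stated, this remaining signal does not check the genotype.

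Changes are differences of log2(CPM + 1), null minus wild type, which understate the change of low genes, and ratios are taken from them. A gene passed when limma's p, adjusted by Benjamini-Hochberg over all genes of the table, was under 0.05. At E2.5, 1 of the 8 genes passed (Cldn6, lower in null embryos), where 0.593% of all genes did and 0.184% did so downwards. At E3.75, 3 of 8 passed, with Cldn6 and Tspan8 lower and Cldn7 higher, where 8.2% of all genes did, 4.6% lower and 3.6% higher. With the first 2 libraries of each group 0 of the 8 passed at E2.5 (0.0141% of all genes) and 1 at E3.75, Tspan8 (2.33% of all genes). With all 18 libraries in the same fit, 3 of the 8 passed at E2.5, Cldn6, Atp1b1 and Tspan8 (2.56% of genes), and 2 at E3.75, Cldn6 and Cldn7 (3.92%). None of the 8 passed at E4.5, and limma called 0% of all genes there. Pou5f1 itself, with a log2 difference of -1.05, did not pass at E4.5 either (limma adjusted p = 0.125). It had passed at E2.5 (0.00105) and E3.75 (8.57e-05). At E4.5 unadjusted p-values under 0.05 were held by 2 of the 8 and by 985 of 6545 genes, and edgeR called 42 of 6545 genes (0.642%). DESeq2 called 112 of the 2611 genes to which it gave an adjusted p (4.29%), and the fit of all 18 libraries 221 of the 5430 genes in every table (4.07%). None of the 8 was among these calls. With null library 1 left out, limma called 120 genes at E4.5 and none of the 8.

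Null libraries lay wholly below wild type libraries for 4 of the 8 genes at E2.5 (Cldn6, Cdh1, Atp1b1 and Tspan8), a gap that 14.1% of all genes showed in that direction. The same 4 lay below at E3.75, where 15.7% of all genes did, and Cldn7 lay above, as 11.4% did. At E4.5 Krt8 and Cdh1 lay below (9.99% of all genes) and Cldn7 above (12.2%). The median change of the 8 genes was -0.222, -0.161 and -0.125 in order of stage, against medians over all genes of -0.015, -0.039 and 0.059.

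**Figure D1:**
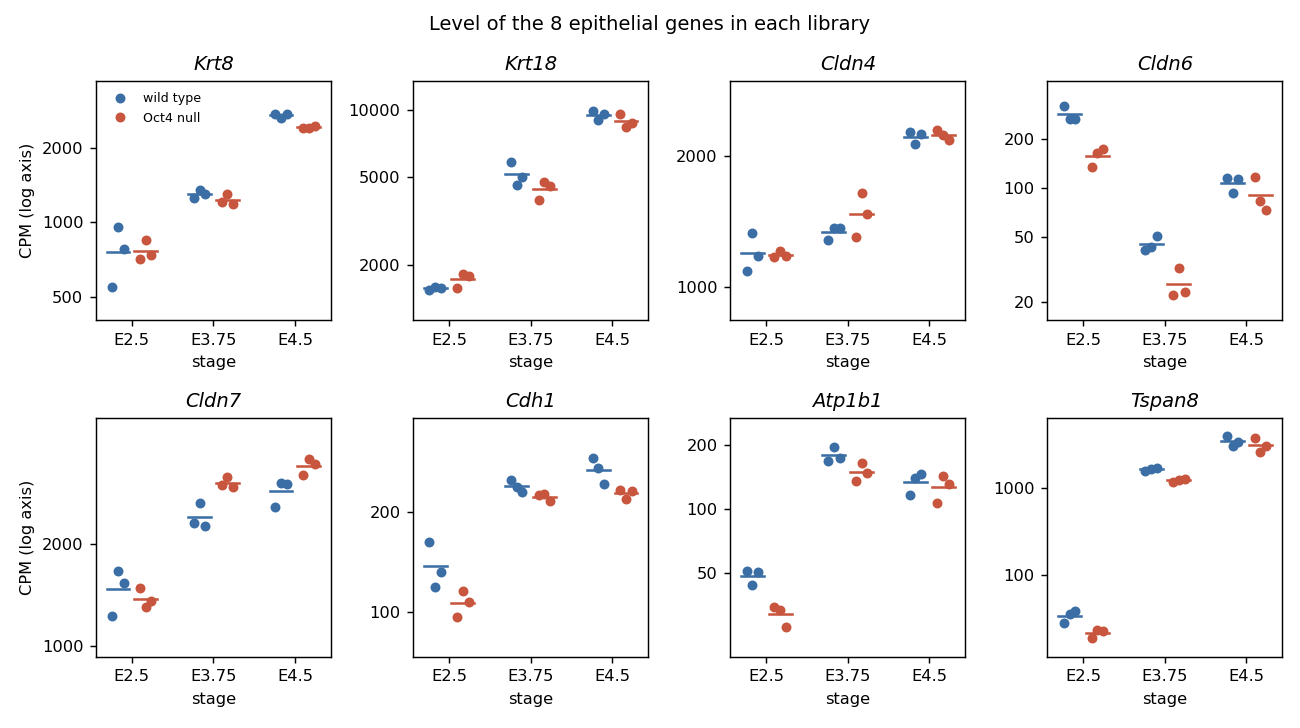
Level of each gene in every library, in CPM on a log axis, for wild type (blue) and Oct4 null (red) embryos at 3 stages; points are libraries and bars are group means (n = 3). All E4.5 libraries lie above all E2.5 libraries for every gene but Cldn6, for which they lie below.

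Promoter sequences are shown for Cldn6, Cldn7 and Tspan8, the genes that passed, so that their upstream regions can be read beside their levels. Each run is the 250 bases before a transcription start, 5′ to 3′ on the gene's strand, from RefSeq on build GRCm38.p6, and capitals mark motif matches on either strand. Motifs searched were the octamer bound by Oct4 and its relatives (ATGCAAAT), the AP-2 motif (GCCNNNGGC) and 3 shorter ones, each on both strands. Spelled out, the motif of the TEAD factors is GGAATG, the motif of the zinc finger factors of the Gata family is AGATAA (called GATA here), and the GC box read by Sp1 and its relatives is GGGCGG. The sequence of Cldn6 covers chr17:23679115-23679364 (plus strand), those of the 2 annotated Cldn7 starts cover chr11:69964529-69964778 and chr11:69965171-69965420 (plus strand), and that of Tspan8 covers chr10:115817034-115817283 (plus strand).
Cldn6: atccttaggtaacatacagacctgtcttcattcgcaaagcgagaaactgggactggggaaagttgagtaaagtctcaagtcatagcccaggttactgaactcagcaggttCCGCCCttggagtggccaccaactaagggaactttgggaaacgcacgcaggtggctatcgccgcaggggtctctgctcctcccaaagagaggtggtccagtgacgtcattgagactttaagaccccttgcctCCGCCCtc
Cldn7, upstream start: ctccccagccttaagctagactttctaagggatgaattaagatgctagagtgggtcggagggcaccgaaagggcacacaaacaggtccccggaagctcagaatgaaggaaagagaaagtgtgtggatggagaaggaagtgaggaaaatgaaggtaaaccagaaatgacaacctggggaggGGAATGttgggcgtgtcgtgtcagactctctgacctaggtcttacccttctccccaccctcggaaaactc
Cldn7, downstream start: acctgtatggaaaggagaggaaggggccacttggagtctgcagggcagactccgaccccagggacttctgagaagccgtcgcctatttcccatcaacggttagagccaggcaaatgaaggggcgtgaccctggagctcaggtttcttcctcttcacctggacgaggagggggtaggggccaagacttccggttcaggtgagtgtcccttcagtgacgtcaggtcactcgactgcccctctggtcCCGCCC
Tspan8: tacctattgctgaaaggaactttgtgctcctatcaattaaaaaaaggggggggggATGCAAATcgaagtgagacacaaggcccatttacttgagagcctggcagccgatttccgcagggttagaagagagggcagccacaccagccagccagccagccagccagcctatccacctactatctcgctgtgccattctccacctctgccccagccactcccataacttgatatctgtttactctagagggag
The Cldn6 sequence holds 2 GC boxes, 140 to 135 and 8 to 3 bases before the start. The upstream Cldn7 sequence holds a TEAD match 70 to 65 bases before the start, and the downstream one a GC box that ends at the start. In the Tspan8 sequence the octamer stands 195 to 188 bases before the start. Over the 32851 promoter windows of the same length in the table, 1.6% hold the octamer, 12.6% the TEAD motif, 13.7% AP-2, 9.99% GATA and 32.7% a GC box. Promoters were found for 7 of the 8 genes, 8 sequences in all, and of these 1 each holds the octamer, TEAD, AP-2 (Krt18) and GATA (Krt8) motif and 4 hold a GC box (Cldn4, Cldn6, Cldn7 and Atp1b1). No matches overlap. A match is a description of the letters and does not show binding.

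Among the keratins, Krt8 (ENSMUSG00000049382), the type II partner of the pair, showed no difference between genotypes that passed at any stage. At E2.5 its wild type libraries held 546.5, 958.5 and 784.7 CPM and its null libraries 710.8, 848.4 and 739.9 CPM, so the null range lay inside the wild type range. The log2 difference was 0.04 (SE 0.165, limma adjusted p = 0.913). At E3.75 the values were 1258, 1352 and 1307 CPM in wild type and 1207, 1302 and 1191 CPM in null libraries, again overlapping (log2 difference -0.08, SE 0.071, adjusted p = 0.531). At E4.5 the groups separated. Wild type libraries held 2744, 2652 and 2751 CPM and null libraries 2406, 2405 and 2456 CPM, a ratio of 0.892 (95% interval 0.807 to 0.987) that did not pass (adjusted p = 0.278).

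Krt18 (ENSMUSG00000023043), the type I partner, came nearest to the threshold at E3.75 among the 5 genes that missed it. Wild type libraries held 5852, 4579 and 4975 CPM and null libraries 3944, 4732 and 4544 CPM, with null library 2 above wild type library 2. The ratio was 0.86 (95% interval 0.773 to 0.957, limma adjusted p = 0.0728). It passed without wild type library 2 (adjusted p = 0.0177) or without null library 2 (0.0318), and not without any of the other 4 libraries. At E2.5 the values were 1554, 1601 and 1574 CPM in wild type and 1587, 1835 and 1782 CPM in null libraries, with a log2 difference of 0.13 in the other direction (adjusted p = 0.31). At E4.5 they were 9870, 9066 and 9569 against 9615, 8369 and 8759 CPM, overlapping, with a log2 difference of -0.09 (adjusted p = 0.511).

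The partners were read against each other within each library, which leaves out the scaling of the table. The ratio of Krt18 to Krt8 reads was 2.17 ± 0.602 (SD, n = 3) in wild type and 2.27 ± 0.129 in null libraries at E2.5, 3.95 ± 0.642 and 3.57 ± 0.275 at E3.75, and 3.5 ± 0.0917 and 3.68 ± 0.278 at E4.5. The genotypes overlapped at every stage, while all 6 libraries at each blastocyst stage lay above all 6 at E2.5. These ratios are of reads, not per length, and are read between groups only. Keratins have processed pseudogenes in mammals, and how reads with several matches were counted is not given in the sources used here.

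Claudins differed in direction. Cldn6 was lower in null embryos at E2.5 and E3.75, Cldn7 was higher at E3.75, and Cldn4 showed no difference that passed. Cldn6 (ENSMUSG00000023906), a claudin of embryonic epithelia and stem cells, stood at 319.6, 266.1 and 268.3 CPM in wild type and 135.1, 163.9 and 175.2 CPM in null libraries at E2.5. The lowest wild type library lay well above the highest null library. Its level fell by 0.85 on the log2 scale (SE 0.134, limma adjusted p = 0.0237), a ratio of 0.555 with a 95% interval of 0.453 to 0.681. With the first 2 libraries of each group the difference was -0.97 but did not pass (adjusted p = 0.276), and with 1 library left out at a time it passed in 2 of 6 fits, losing the call without wild type library 3 or any of the null libraries (adjusted p between 0.00315 and 0.17).

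At E3.75 Cldn6 was at its lowest, with 41.37, 43.3 and 50.34 CPM in wild type and 21.96, 31.99 and 22.95 CPM in null libraries, still without overlap. These values rest on few reads, 22, 51 and 29 in wild type and 19, 44 and 33 in null libraries. Cldn6 fell by 0.8 (SE 0.238, limma adjusted p = 0.0403), a ratio of 0.573 (95% interval 0.407 to 0.807). In other fits the difference was -0.65 with the first 2 libraries (adjusted p = 0.423), it passed in 2 of the 6 fits with 1 library left out (without wild type library 1 or null library 2), and it missed the threshold with TMM factors (0.0528), with DESeq2 size factors (0.0524), in edgeR's quasi-likelihood test (0.0519) and in DESeq2 (0.154). At E4.5 the groups overlapped, at 116, 93.07 and 113.9 CPM in wild type and 117.8, 82.91 and 72.97 CPM in null libraries (log2 difference -0.26, adjusted p = 0.547). Null library 1, the shallowest of all 18, held the highest of these values.

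Cldn7 (ENSMUSG00000018569), a claudin common to many epithelia, went the other way at the blastocyst stages. At E3.75 wild type libraries held 2300, 2644 and 2267 CPM and null libraries 2975, 3145 and 2944 CPM, so every null library exceeded every wild type library. It rose by 0.33 (SE 0.0653, limma adjusted p = 0.00248), a ratio of 1.26 (95% interval 1.15 to 1.38), and passed in all 6 fits with 1 library left out (adjusted p between 0.000432 and 0.0404). With the first 2 libraries the difference was 0.31 (adjusted p = 0.0836). At E4.5 the values were 2569, 3027 and 2995 CPM in wild type and 3195, 3569 and 3445 CPM in null libraries, again without overlap, with a ratio of 1.19 (95% interval 1.05 to 1.35) that did not pass (adjusted p = 0.204). At E2.5 the groups overlapped, at 1228, 1669 and 1540 against 1480, 1308 and 1359 CPM (log2 difference -0.09, adjusted p = 0.672).

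Cldn4 (ENSMUSG00000047501), which many barrier epithelia carry, gave nearly the same level in the genotypes at each stage. Its libraries held 1091, 1328 and 1180 CPM in wild type and 1172, 1213 and 1177 CPM in null embryos at E2.5 (ratio 0.993, 95% interval 0.876 to 1.12). At E3.75 they held 1279, 1364 and 1368 against 1303, 1644 and 1467 CPM (ratio 1.1, 0.979 to 1.23), and at E4.5 2263, 2123 and 2236 against 2283, 2233 and 2170 CPM (ratio 1.01, 0.908 to 1.12). All 3 comparisons overlapped, and the limma adjusted p was 0.954, 0.328 and 0.937. The sign at E2.5 and at E4.5 turned with other scalings or with 1 library left out, so no direction is given for these stages.

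Read within each library, the 3 claudins together drew a mean of 2960 ± 313 (SD) in the 3 wild type and 2730 ± 53 CPM in the 3 null libraries at E2.5, 3790 ± 232 and 4520 ± 270 at E3.75, and 5180 ± 206 and 5720 ± 147 at E4.5. Cldn6 made up 9.74% ± 2.08 of these claudin reads in wild type and 5.8% ± 0.845 in null libraries at E2.5, 1.19% ± 0.157 and 0.564% ± 0.0864 at E3.75, and 2.08% ± 0.283 and 1.6% ± 0.446 at E4.5. At the first 2 stages the lowest wild type share exceeded the highest null share, 8.15% against 6.46% at E2.5 and 1.07% against 0.664% at E3.75. The share of Cldn7 was 63.4% ± 1.9 in wild type and 66.9% ± 2.05 in null libraries at E3.75, where the ranges met at 65.3% and 65.2%. These shares were not tested, and those of Cldn6 at E3.75 rest on 19 to 51 reads of Cldn6 in a library.

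**Figure D2:**
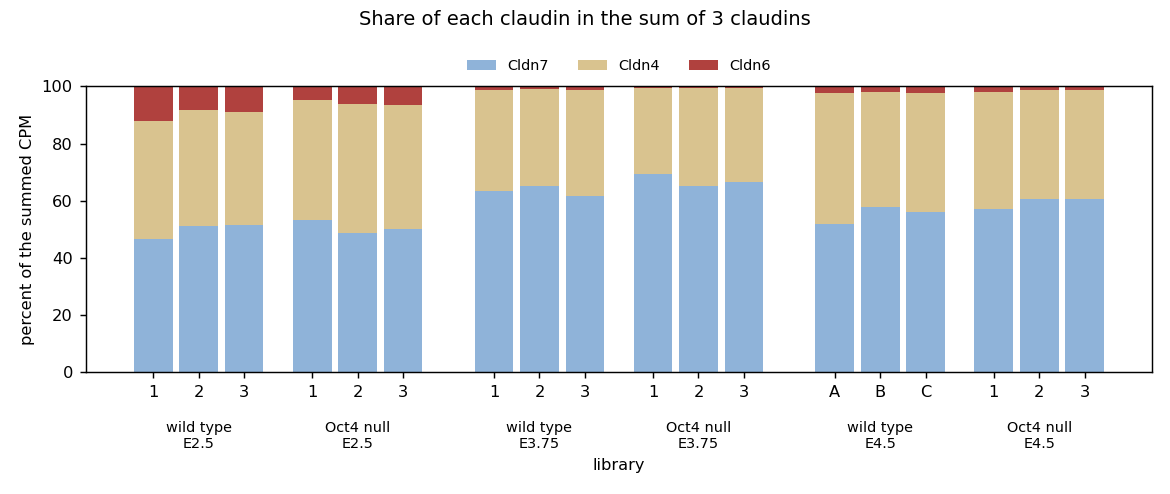
Percent of the summed CPM of Cldn4, Cldn6 and Cldn7 that each claudin held in every library, by genotype and stage; wild type libraries of E4.5, which lack a number, are A, B and C. The Cldn6 band spans 8.15% to 12.1% in wild type and 4.85% to 6.46% in null libraries at E2.5 and reaches at most 2.34% in the later libraries.

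Cdh1 (ENSMUSG00000000303), the adhesion receptor of adherens junctions, was lower in null libraries at all 3 stages without passing at any. At E2.5 wild type libraries held 162.5, 118.7 and 132.1 CPM and null libraries 96.92, 116 and 107.4 CPM, a gap of a few CPM between wild type library 2 and null library 2. The ratio was 0.781 (95% interval 0.617 to 0.989, limma adjusted p = 0.224). At E3.75 the values were 250.1, 238.6 and 229.1 against 224.3, 226.8 and 216.3 CPM (ratio 0.93, 0.794 to 1.09, adjusted p = 0.623), and at E4.5 they were 291, 271.5 and 242.6 against 232.9, 219.1 and 231.6 CPM (ratio 0.852, 0.708 to 1.02, adjusted p = 0.375). The highest null library lay just under the lowest wild type library at each stage.

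Atp1b1 (ENSMUSG00000026576), the beta subunit that the sodium pump needs to reach the membrane, showed its lowest ratio at E2.5. Wild type libraries held 51.27, 43.78 and 50.26 CPM and null libraries 34.51, 33.29 and 27.64 CPM, without overlap, a ratio of 0.662 (95% interval 0.482 to 0.91) that did not pass (limma adjusted p = 0.148). In a fit of all 18 libraries together, which takes the spread from every group, it passed (adjusted p = 0.0456), while the first 2 libraries gave -0.47 (adjusted p = 0.809). At E3.75 the values were 169.2, 196.1 and 173.6 CPM in wild type and 136.4, 164.3 and 147.5 CPM in null libraries (ratio 0.832, 0.691 to 1, adjusted p = 0.221). They overlapped at E4.5, at 116, 139.6 and 147 against 106.9, 143 and 131 CPM (ratio 0.944, 0.735 to 1.21, adjusted p = 0.837). Atp1b3, another beta subunit, had log2 differences of -0.05 and -0.04 at E2.5 and E3.75 (adjusted p = 0.86 and 0.866).

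Tspan8 (ENSMUSG00000034127) was the gene with the greatest step between stages and, at E3.75, the smallest adjusted p of the 8. Wild type libraries held 1580, 1653 and 1673 CPM there and null libraries 1166, 1223 and 1277 CPM, so every null library lay below every wild type library. It fell by 0.42 (SE 0.0688, limma adjusted p = 0.000528), a ratio of 0.747 (95% interval 0.677 to 0.825). The call passed in all 6 fits with 1 library left out (adjusted p between 0.000295 and 0.0104) and with the first 2 libraries (-0.44, adjusted p = 0.021), and it was lost in the fit of all 18 libraries (0.0582).

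At the other stages Tspan8 did not pass. Wild type libraries held 28.36, 35.71 and 38.91 CPM and null libraries 19.09, 23.41 and 22.94 CPM at E2.5, without overlap but at a low level, with a ratio of 0.649 (95% interval 0.445 to 0.945, limma adjusted p = 0.188). In the fit of all 18 libraries this difference passed (adjusted p = 0.00622), while the first 2 libraries gave -0.57 (adjusted p = 0.809). That fit takes the spread of a gene from every group. Tspan8 drew only 26 to 48 reads in a library at E2.5 and 840 to 4024 at the later stages. The pass at E2.5 thus rests in part on the spread at later, higher levels. At E4.5 the values were 3908, 3034 and 3401 CPM in wild type and 3760, 2589 and 2996 CPM in null libraries, overlapping (ratio 0.898, 0.739 to 1.09, adjusted p = 0.571).

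**Figure D3:**
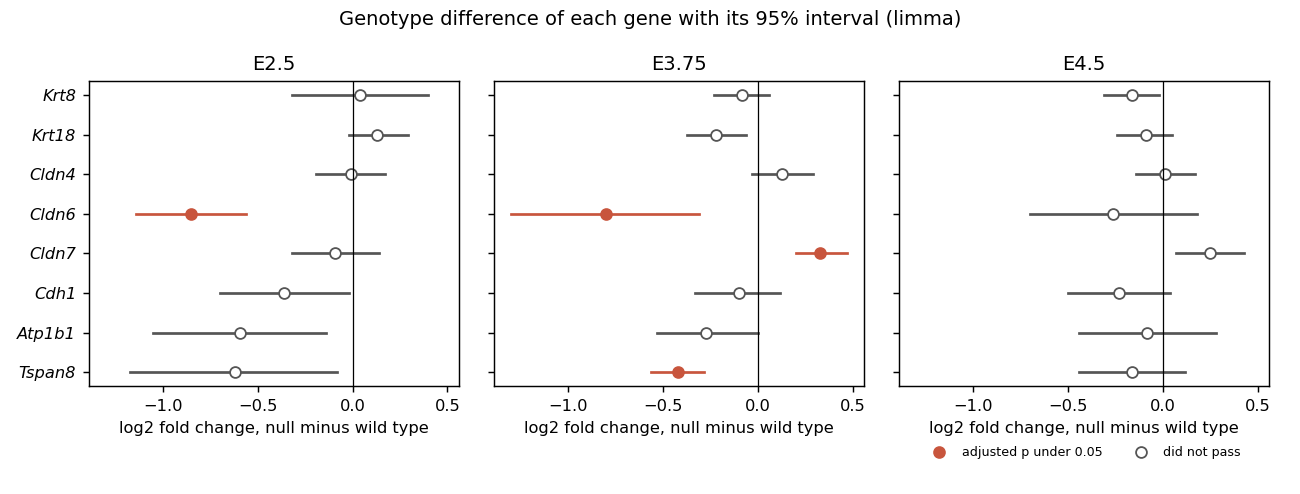
Difference in log2(CPM + 1), null minus wild type, for each gene at each stage, with its 95% interval from limma (n = 3 libraries per group); filled red points passed at an adjusted p under 0.05. Cldn6 at E2.5 and E3.75 and Tspan8 at E3.75 lie left of 0, Cldn7 at E3.75 lies right of it, and no point is filled at E4.5.

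The genotype differences themselves were compared between stages over the 5430 genes present in every table. For none of the 8 genes did a difference between stages pass, where 1.12% of genes passed for E3.75 minus E2.5, 0.0921% for E4.5 minus E3.75 and 1.01% for E4.5 minus E2.5. The smallest adjusted p was that of Cldn7, whose null minus wild type difference at E3.75 exceeded that at E2.5 by 0.42 (95% interval 0.15 to 0.69, unadjusted p = 0.00374, limma adjusted p = 0.122). That contrast passed for Cldn7 when wild type library 1 of E2.5 was left out, as did E4.5 minus E2.5. For Krt18 the same contrast was -0.35 (-0.59 to -0.11, adjusted p = 0.145). For E4.5 minus E2.5 the contrast was 0.59 for Cldn6 (0.04 to 1.14, adjusted p = 0.251), 0.51 for Atp1b1 (0.04 to 0.98, adjusted p = 0.242) and 0.47 for Tspan8 (0.1 to 0.84, adjusted p = 0.173). So a call at E3.75 and none at E4.5 was not shown to be a difference between those stages, for which the smallest adjusted p of the 8 genes was 0.356.

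Levels across stages are given as a description, since the tables were scaled separately. Genes shared by all tables drew 95.99% to 97.5% of the reads in every library, so the scales lie close together. In wild type embryos the mean level at E4.5 was 3.56 times that at E2.5 for Krt8, 6.03 times for Krt18, 1.84 times for Cldn4, 1.94 times for Cldn7, 1.95 times for Cdh1 and 2.77 times for Atp1b1. In null embryos the same ratios were 3.16, 5.14, 1.88, 2.46, 2.13 and 3.99. All 6 of these genes were thus higher at the late blastocyst than before it in either genotype. The 8 genes together made up 0.552% ± 0.0522 of all reads in wild type (SD, n = 3) and 0.539% ± 0.015 in null libraries at E2.5, 1.23% ± 0.0379 and 1.18% ± 0.0751 at E3.75, and 2.13% ± 0.0777 and 2.05% ± 0.107 at E4.5. The genotypes overlapped in this share at each stage, and the stages did not.

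Tspan8 and Cldn6 stood out in their course. The mean of Tspan8 at E3.75 was 47.6 times its mean at E2.5 in wild type and 56 times in null embryos, with a further 2.11 times and 2.55 times to E4.5. Cldn6 had the opposite course, with a mean at E2.5 that was 6.33 times its mean at E3.75 in wild type and 6.17 times in null embryos, and a mean at E4.5 that was 2.39 times and 3.56 times that of E3.75. Atp1b1 was highest at E3.75, at 3.71 times its level at E2.5 in wild type and 4.7 times in null embryos. Its level at E4.5 was 0.747 and 0.85 times that of E3.75.

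In order of mean level, Krt8, Krt18 and Tspan8 ran from E2.5 through E3.75 to E4.5, with the genotypes of a stage next to each other. Neighbouring groups overlapped only within a stage for these genes. For Cldn6 the order from low to high was null E3.75, wild type E3.75, null E4.5, wild type E4.5, null E2.5 and wild type E2.5, and only the E4.5 groups overlapped. For Cldn7 null E3.75 stood above wild type E4.5, and these neighbours overlapped. For Cdh1 the 4 blastocyst groups ran from null E3.75 to wild type E4.5, and each overlapped its neighbour. For Atp1b1 the 4 blastocyst groups ran from null E4.5 to wild type E3.75, and wild type E4.5 overlapped both of its neighbours. For Cldn4, 4 of the 5 pairs of neighbours overlapped, and only null E3.75 and wild type E4.5 stood apart.

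Other genes of the same structures were read from 6 lists of 111 gene symbols in all, which hold both the older and the newer name of some genes. Of these, 54, 58 and 54 were measured in order of stage. At E2.5, 1 of the 54 rose and none fell, where 0.593% of all genes passed. At E3.75, 3 of 58 rose and 4 fell, where 3.6% of all genes rose and 4.6% fell, and at E4.5 none of 54 passed. The counts at E3.75 lie near the shares over all genes. The median change was -0.04, -0.09 and -0.08 at the 3 stages. Of the 8 calls, 1 passed with the first 2 libraries alone (Cldn3), and 2 passed in all 6 fits with 1 library left out (Aqp8 and Cd63).

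Of the tight junction and polarity list, 0 of 18 genes passed at E2.5 (smallest p for Pard6b, a polarity adaptor, log2 difference 0.89, limma adjusted p = 0.126), and at E3.75 1 of 19 rose and 1 fell. Cldn3, another claudin, stood at 103.4, 63.68 and 102.4 CPM in wild type and 34.68, 47.25 and 54.25 CPM in null libraries at E3.75, and fell by 0.96 (limma adjusted p = 0.00683). All null libraries lay below the lowest wild type library, as for Cldn6 and for 15.7% of all genes. Over all genes 3.6% rose and 4.6% fell at E3.75. With the first 2 libraries the difference in Cldn3 was -0.99 (adjusted p = 0.0335). F11r, the junctional adhesion molecule A, stood at 379.9, 493.3 and 423.6 CPM against 602.3, 522.7 and 592.6 CPM and rose by 0.41 (adjusted p = 0.0133, but 0.202 with the first 2 libraries). At E4.5, 0 of 17 passed.

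In the ion and water transport list 2 of 9 genes fell at E3.75, and 0 of 6 at E2.5 and 0 of 8 at E4.5 passed. Over all genes 4.6% fell at E3.75. Aqp8, a water channel, stood at 97.46 ± 6.837 CPM (SD, n = 3) against 58.57 ± 7.303 CPM in null embryos and fell by 0.73 (limma adjusted p = 0.00931, but 0.16 with the first 2 libraries). Slc9a3r1, a scaffold that anchors transporters to ezrin, went from 148.5 ± 24.96 to 99.64 ± 14.36 CPM and fell by 0.57 (adjusted p = 0.0265, but 0.118 with the first 2 libraries). At E3.75 groups did not overlap for either gene, a gap in this direction that 15.7% of all genes showed. At E4.5 Aqp8 had the higher mean in null embryos, 445.8 against 317.4 CPM, with overlap (log2 difference 0.51, limma adjusted p = 0.374). In the apical membrane list 1 of 6 genes fell at E3.75. Ezr (ezrin), which ties apical membrane to actin, stood at 63.94, 84.9 and 92 CPM in wild type and 34.68, 60.34 and 44.52 CPM in null libraries and fell by 0.79 (adjusted p = 0.0206, but 0.23 with the first 2 libraries).

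Tetraspanins other than Tspan8 that passed moved up. At E2.5 1 of 10 rose, Tspan4, from 114.1 ± 10.02 CPM (SD, n = 3) to 190.5 ± 10.56 CPM in null embryos (log2 difference 0.74, limma adjusted p = 0.0307, but 0.604 with the first 2 libraries). At E3.75 2 of 10 rose, where 3.6% of all genes did, and at E2.5 0.593% of all genes passed. Cd63, a tetraspanin of late endosomes, went from 850.5 ± 42.86 to 1104 ± 45.3 CPM (0.38, adjusted p = 0.00314), and Cd9, a tetraspanin of the cell surface, from 760.1 ± 61.41 to 929.4 ± 88.04 CPM (0.29, adjusted p = 0.0409). With the first 2 libraries their adjusted p was 0.0986 and 0.256. The relative Tspan1 stood at 197.7 ± 20.7 and 150.5 ± 7.187 CPM at E3.75 and did not pass (-0.39, adjusted p = 0.0595), a gene chosen after its values were seen. At E4.5, 0 of 9 passed.

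No gene of the keratin and desmosome list (6, 6 and 7 measured in order of stage) or of the adherens junction list (8 at each stage) passed. Desmoplakin (Dsp), which ties keratin filaments to desmosomes, came nearest at E2.5, at 104.7, 74.88 and 88.36 CPM in wild type and 43.32, 46.82 and 49.54 CPM in null libraries (log2 difference -0.91, limma adjusted p = 0.0537). At E3.75 its difference had the other sign (0.37, adjusted p = 0.136), and null libraries lay above wild type libraries. Alpha-catenin (Ctnna1), which links cadherins to actin, stood at 522.8 ± 3.249 CPM (SD, n = 3) against 427.9 ± 36.06 CPM in null embryos at E2.5 (-0.29, adjusted p = 0.117) and had a difference of -0.3 at E4.5 (adjusted p = 0.227). Epcam, an epithelial adhesion molecule, had a difference of 0.21 at E3.75 (adjusted p = 0.0754).

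Among the lists without a call at E2.5 or E4.5, the genes with the smallest p were the following. In the apical membrane list it was moesin (Msn), an ezrin relative, at both stages, with a log2 difference of -1.02 at E2.5 (limma adjusted p = 0.0859) and -0.69 at E4.5 (0.161). In the transport list it was the water and glycerol channel Aqp9 at E2.5 (0.41, adjusted p = 0.126) and Slc9a3r1 at E4.5 (-0.45, adjusted p = 0.216). At E4.5 it was Pkp4, an armadillo protein of junctions, in the keratin and desmosome list (-1.1, adjusted p = 0.169), the junction scaffold Tjp3 in the tight junction list (0.79, adjusted p = 0.278) and Cd9 among the tetraspanins (0.12, adjusted p = 0.576). Null and wild type libraries did not overlap for any of these except Cd9. As the genes were picked by smallest p in the same libraries, this gap follows largely from the choice. Over all genes, 14.1% lay wholly lower at E2.5, the direction of Msn. No share is given for the other direction at E2.5, that of Aqp9. At E4.5 9.99% of all genes lay wholly lower and 12.2% wholly higher.

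**Figure D4:**
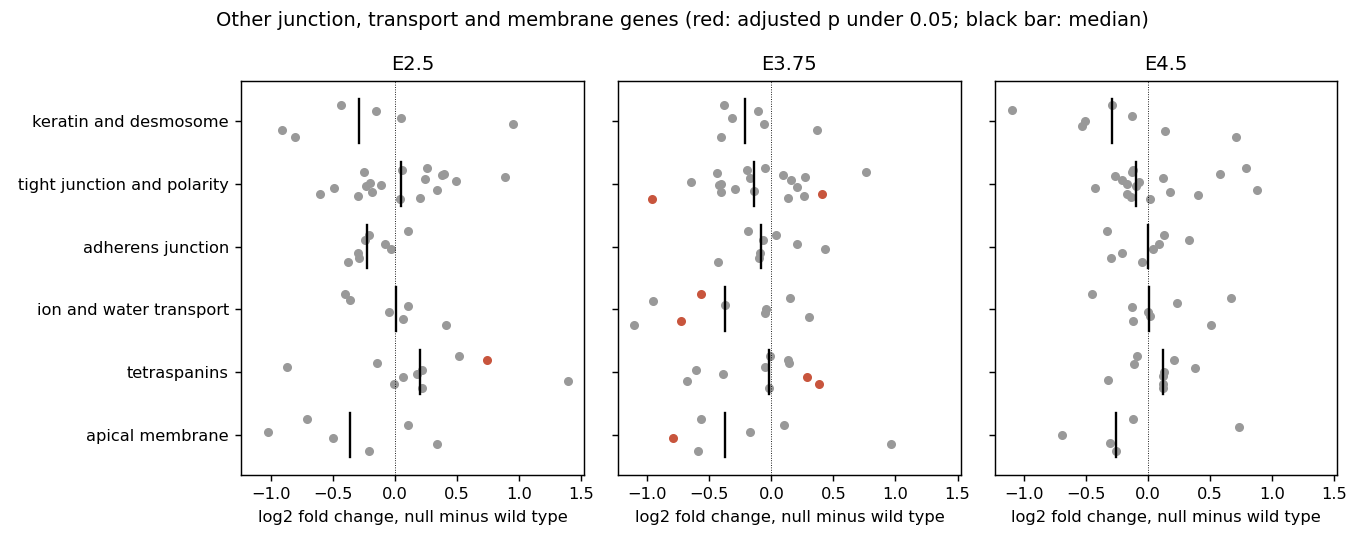
Difference in log2(CPM + 1), null minus wild type, for each measured gene of 6 lists of junction, transport and membrane genes at each stage; points are genes, black bars list medians, and red points passed at an adjusted p under 0.05. Of the red points, 1 lies at E2.5 and 7 at E3.75, with members on both sides of 0 in most lists.

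Lineage markers moved in the same libraries, and their part in the results above was not tested. Over all genes 0.593% passed at E2.5, and at E3.75 3.6% rose and 4.6% fell, which are the shares to set beside the counts of markers here. Of the 8 trophectoderm markers, 6 were measured at E2.5 and 1 rose (Hand1), with a summed level of 756.9 to 819.2 CPM in wild type and 992 to 1023 CPM in null libraries. At E3.75, where all 8 were measured, 1 rose (Tead4) and the sums overlapped at 1107 to 1167 and 1144 to 1215 CPM, and they overlapped at E4.5 too (1190 to 1297 and 1230 to 1401 CPM). Hand1 and Tead4 did not pass with the first 2 libraries (adjusted p = 0.157 and 0.259). The lowest null sum at E3.75 lay inside the wild type range and the highest above it. Cdx2 was the largest part of these sums, with means of 557.8 CPM (wild type) and 543.2 CPM (null). Of the 8 markers, 4 had a lower mean in null embryos at that stage, and the median log2 difference was -0.01.

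Of the 8 epiblast markers, 1 rose (Nanog) and 6 fell at E3.75, with sums of 656.3 to 746.5 CPM in wild type and 600 to 627.4 CPM in null libraries. Nanog and 2 of these 6 (Spp1 and Tdgf1) still passed without the third libraries. At E2.5, with 6 measured and none passing, the sums were 457.4 to 554.1 and 429.5 to 457.3 CPM, and at E4.5 they were 597.2 to 736.6 and 341.5 to 405.6 CPM. Of the 10 primitive endoderm markers 9 were measured at E3.75, where 1 rose (Col4a1) and 5 fell, with sums of 745.4 to 991 and 606.9 to 676.8 CPM. Without the third libraries 4 of the 5 still passed and Col4a1 did not (adjusted p = 0.501). At E2.5, with 4 measured, the sums were 419.9 to 462.5 and 495.4 to 536 CPM, and at E4.5, with 8, they were 1057 to 1368 and 840.6 to 881.6 CPM.

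Among markers of maternal cells, globin genes also differed at E3.75. Of 11 listed, only the globin genes Hba-a1, Hbb-bs and Hbb-bt were measured, near-identical copies of which can share reads. Their sum was 114.7 to 176.6 CPM in wild type and 175.9 to 474 CPM in null libraries at E3.75, where 2 of the 3 rose (Hba-a1 and Hbb-bs, both also past the threshold without the third libraries). At E4.5 it was 149.2 to 267.6 CPM in wild type and 147.6 to 1085 CPM in null libraries, with the highest value in null library 1. At E2.5 the sums overlapped, at 1024 to 1437 and 1076 to 1330 CPM. The other 8 maternal markers, among them the leukocyte gene Ptprc and the oviduct gene Ovgp1, were looked up by symbol and found at no stage. Genes low in most libraries are not in the tables.

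Likeness between genes was described by Pearson's r of log2(CPM + 1) over the 18 libraries after each stage mean was removed, which leaves the genotype difference in. Libraries of a stage share the scaling of their table, and the median depth of null libraries was higher than that of wild type libraries at each stage. Among the 28 pairs of the 8 genes, r ran from -0.63 (Krt18 and Cldn7) to 0.84 (Cldn6 and Tspan8), with a median of 0.08. Cldn6 was also like Cdh1 (0.67) and Atp1b1 (0.61) and unlike Cldn7 (-0.47), while Cldn4 and Cldn7 had r = 0.53. The keratin partners Krt8 and Krt18 had r = 0.27.

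Over all shared genes, the nearest to Cldn6 were Ezr (r = 0.883) and Fam104a (0.88), and the nearest to Tspan8 were Ugp2 (0.867), an enzyme of glycogen synthesis, and Usp34 (0.866), a ubiquitin protease. Cldn7 was nearest to Ddx39 (0.919), an RNA helicase, and Agpat2 (0.886), an enzyme of phospholipid synthesis. Cdh1 was nearest to Asns (0.92), asparagine synthetase, and the kinase Nek6 (0.896), and Atp1b1 to Man2b1 (0.881), a lysosomal mannosidase, and Prdx1 (0.878), a peroxiredoxin. Krt8 was nearest to Adnp (0.895) and Pycard (0.894), and Krt18 to the mitochondrial phosphate carrier Slc25a3 (0.872) and the actin bundler Lcp1 (0.838). Cldn4 had the weakest likeness, with Mad2l1bp at 0.788 and Nudt1 at 0.714. These values describe the 18 libraries and carry no test.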

How the data were processed

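Each stage has its own deposited table of CPM values, and edgeR and the build mm9 appear, with no role given, per the submitters' processing notes. For the aligner, counter, annotation and strand, the sources used here give nothing. Genes low in most libraries are not in the tables (each gene reaches at least 10.28 CPM in 3 libraries), and each table was scaled on its own. Dividing CPM by the worth of 1 read turned 121650 of 121650 values (100.0%) into whole reads, to within 0.01 reads. All 3 wild type columns of E4.5 carry the same name, so those libraries are called A, B and C and have no replicate number. Identifiers matched a symbol for 6968 of 7082, 6546 of 6648 and 6443 of 6545 genes.

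Per stage, log2(CPM + 1) was fitted with limma 3.58.1 in R 4.3.3 with a variance trend, and two-sided p-values were adjusted by Benjamini-Hochberg over the table, with a threshold of 0.05. Differences between stages were fitted over all 18 libraries. Alternatives were pseudocounts of 0.1 and 5, a mean of at least 10 CPM, TMM and DESeq2 size factors, each library left out, the first 2 libraries of each group, a replicate block, all 18 libraries in 1 fit, and edgeR 4.0.16 and DESeq2 1.42.0 on the recovered reads. DESeq2 gave an adjusted p for 5434, 4328 and 2611 genes at the 3 stages and left the others undefined. Intervals cover the spread between libraries.

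The 8 genes, the lists, the motifs and the markers were chosen with earlier results of these data known. Named beside the 8 are Pou5f1, list genes that passed (up to 6 per list and stage, otherwise 1 with the smallest p) and the 2 genes most like each of the 8. Atp1b3 and Tspan1 were named outside this rule. Promoters come from RefSeq on GRCm38.p6, by symbol.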

Additional observations from a re-analysis of the deposited data

How the results depend on the processing

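Over the alternatives run, the change of single genes kept its direction and its side of the threshold in 340 cases, passed no longer in 17, newly passed in 4 and turned in 15. Most of the 340 come from genes without a call, which had none to lose. Cldn6 passed in 9 of 10 alternatives and 2 of 6 fits with 1 library left out at E2.5, and in 4 of 10 and 2 of 6 at E3.75. Cldn7 and Tspan8 at E3.75 each passed in 9 of 10 and 6 of 6. As the third libraries lay near a mix of the first 2, fits with 1 library left out are no independent check. The first 2 libraries of each group gave 0 of the 8 genes at E2.5 (1 with all libraries) and 1 at E3.75 (3 with all), and 1 and 155 genes over the whole tables against 42 and 545. The fit of all 18 libraries gave 3 of the 8 genes at E2.5, and 139, 213 and 221 genes over the tables of E2.5, E3.75 and E4.5, with 5430 genes tested. At E2.5 TMM factors called 99 genes, DESeq2 size factors 93, edgeR 179 and DESeq2 232. DESeq2 called 288 at E3.75. At E4.5, where limma called 0, a pseudocount of 5 gave 1, TMM factors 2, edgeR 42 and DESeq2 112. With 1 library left out, the 8 genes gave 0 to 1 call at E2.5 and 2 to 4 at E3.75, the whole tables gave 1 to 773, 209 to 652 and 0 to 120 (the last without null library 1), and the differences between stages gave 0 to 1 for E3.75 minus E2.5 and for E4.5 minus E2.5. The change of Cldn4 at E2.5 turned to 0.0076 with TMM factors, 0.005 with DESeq2 size factors, 0.0044 in edgeR and 0.0018 in DESeq2, and at E4.5 to -0.04, -0.03, -0.05 and -0.04. With 1 library left out it ran from -0.08 to 0.06 at E2.5 and from -0.01 to 0.03 at E4.5, that of Krt8 at E2.5 from -0.18 to 0.22, that of Cldn7 at E2.5 from -0.22 to 0.0054 and that of Atp1b1 at E4.5 from -0.18 to 0.04. The cause was not tested. The labels do not say whether the replicate numbers pair the libraries. Deviations of same-numbered libraries had correlations of -0.003 to 0.121 at E2.5 and -0.031 to 0.01 at E3.75. With 3 libraries per group, and the third near a mix of the first 2, these values cannot settle whether they do. With the number as a replicate block, 1 of the 8 genes passed at E2.5 and 2 at E3.75 (Cldn7 and Tspan8, but not Cldn6, whose change of -0.8 had an adjusted p of 0.0536), with 30 and 438 genes over the whole tables. No block was possible at E4.5, where the wild type columns carry no number.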
